A study of Homo sapiens with 9 samples.

Results

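SREBF2, INSIG1, INSIG2 and STARD4 were followed across 3 treatments of SMS-KCNR cells, an established human neuroblastoma line. They were taken by gene symbol from the platform annotation, which gave each of them 1 probeset, so 4 genes of the 14884 named genes measured are described. Each of the 3 groups has 3 arrays. Controls received the solvent DMSO, a further group 5 µM simvastatin, and the last group that dose of simvastatin and 2 mM mevalonate, all for 30 hours in medium with fetal bovine serum, which itself supplies cholesterol. Whether the 3 samples of a group were separate cultures is not stated beyond their being independent, so p-values measure the spread between these samples.

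SREBF2 encodes SREBP-2, a transcription factor that is made as a precursor in the membrane of the endoplasmic reticulum. SCAP escorts the precursor to the Golgi, where the site-1 and site-2 proteases release the active part, which then switches on genes of cholesterol synthesis and uptake. INSIG1 and INSIG2 are related membrane proteins that hold SCAP and the precursor in the endoplasmic reticulum when sterols are plentiful. STARD4 is a small soluble START-domain protein that carries cholesterol between membranes. SREBF2, INSIG1 and STARD4 are themselves known targets of SREBPs, while INSIG2 is known for a different, sterol-independent control. Mevalonate is an early intermediate of cholesterol synthesis, and adding it supplies the pathway below the step that statins block.

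The promoters of the 4 genes are shown because all 4 genes rose with simvastatin, and on adding mevalonate 3 of them fell while the change of INSIG1 did not pass the test. Each sequence is the 250 bases before the gene start in RefSeq (GRCh38.p14), 5′ to 3′ on the gene's strand. The windows lie at chr22:41832855-41833104 (plus strand, SREBF2), chr7:155297628-155297877 (plus, INSIG1), chr2:118088221-118088470 (plus, the more upstream of 2 listed INSIG2 windows) and chr5:111512536-111512785 (minus, STARD4). Capitals mark matches, on either strand, to the sterol regulatory element, the E-box and the CCAAT box.
SREBF2: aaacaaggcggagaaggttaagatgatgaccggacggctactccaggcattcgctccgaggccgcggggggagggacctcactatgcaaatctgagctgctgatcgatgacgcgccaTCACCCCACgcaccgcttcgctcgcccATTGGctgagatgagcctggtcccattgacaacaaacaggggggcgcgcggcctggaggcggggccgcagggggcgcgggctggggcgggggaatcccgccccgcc
INSIG1: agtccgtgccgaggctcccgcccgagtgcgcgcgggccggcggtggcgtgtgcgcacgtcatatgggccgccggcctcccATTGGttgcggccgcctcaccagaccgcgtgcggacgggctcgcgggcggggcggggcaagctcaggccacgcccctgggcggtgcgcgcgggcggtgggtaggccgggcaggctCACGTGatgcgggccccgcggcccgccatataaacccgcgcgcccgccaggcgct
INSIG2: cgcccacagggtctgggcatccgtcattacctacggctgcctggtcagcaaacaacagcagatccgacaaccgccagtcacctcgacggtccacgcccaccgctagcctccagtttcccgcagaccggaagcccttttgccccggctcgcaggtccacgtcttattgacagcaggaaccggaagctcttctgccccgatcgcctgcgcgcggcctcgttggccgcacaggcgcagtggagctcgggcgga
STARD4: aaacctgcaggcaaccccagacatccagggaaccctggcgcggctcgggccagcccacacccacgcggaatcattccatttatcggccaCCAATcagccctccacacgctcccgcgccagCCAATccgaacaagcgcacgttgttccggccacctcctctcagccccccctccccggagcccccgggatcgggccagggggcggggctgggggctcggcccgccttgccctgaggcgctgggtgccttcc

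Motifs were searched by their letters on both strands of the 300 bases that run from 250 before to 50 after each start. The sterol regulatory element, the site that SREBPs bind, was searched as TCACNCCAC. It was present in the SREBF2 window as TCACCCCAC, beginning 133 bases before the start, and had no match in the windows of the other members. Of all 35116 windows, 396 (1.13%) held it. The SREBF2 window also held a CCAAT box (CCAAT, reverse strand), the site of the factor NF-Y, 106 bases before the start.

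In the INSIG1 window the E-box CACGTG began 55 bases before the start, a motif held by 7.26% of all windows, and a reverse-strand CCAAT box began 170 bases before the start. The STARD4 window held 2 CCAAT boxes, at 161 and 130 bases before the start. Both INSIG2 windows had neither of these motifs. CCAAT was present in 34.6% of all windows. The GC box GGGCGG, which factors of the Sp family bind, was in 45.0% of all windows and in those of each of the 4 genes. Neighbouring GC-box matches overlap by a base in SREBF2 and INSIG1. The shares above count windows, and a gene can have more than 1. Counted by gene, 39.7% of all 27305 genes with a window held CCAAT and 48.3% the GC box. Of the 10749 measured genes with a window, the closer comparison for the 4 genes, 41.4% held CCAAT and 66.0% the GC box. By gene the rise was thus small for CCAAT and larger for the GC box. The E-box was held by 1187 of these measured genes and by 2396 of all genes. The sterol regulatory element was held by 155 measured genes (1.44%), against 1.39% of all genes. The 4 windows were 66.0% (INSIG2) to 78.3% (INSIG1) G and C, against a median of 58.7%. Among the 12 measured SREBP-2 target genes with a window, 0 held the sterol regulatory element in this form or the E-box, and 11 held a CCAAT box. These matches describe the letters of a short window and not sites of binding.

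**Figure D1:**
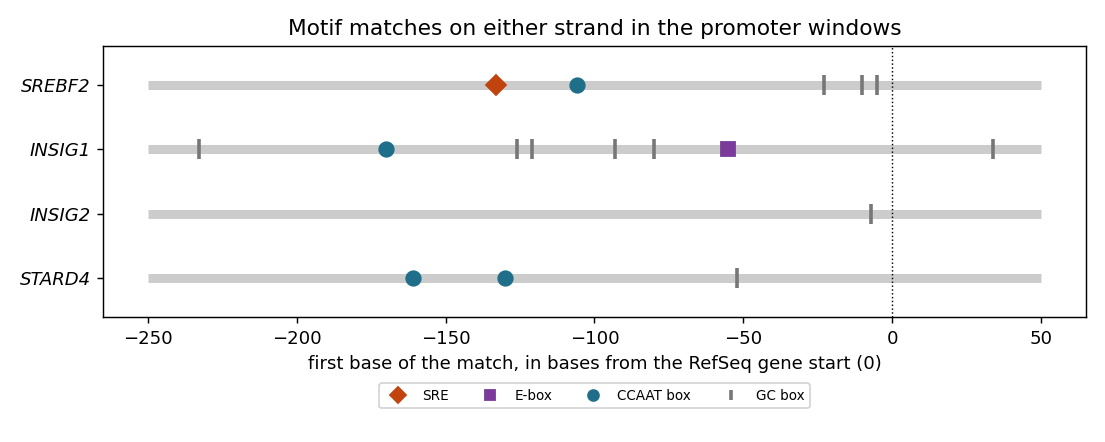
Positions of motif matches in the promoter windows of SREBF2, INSIG1, INSIG2 and STARD4 (first window of INSIG2), as the first base of each match in bases from the RefSeq gene start; symbols separate the sterol regulatory element (SRE), E-box, CCAAT box and GC box. The SRE appears in SREBF2 at 133 bases before the start, the E-box in INSIG1 at 55, CCAAT boxes in SREBF2, INSIG1 and STARD4, and in INSIG2 a single GC box.

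Values are the authors' log2 expression values, and their distribution was alike on all arrays, with array medians from 5.17 to 5.21. Arrays of a group correlated with r from 0.994 to 0.996 across genes. Of 11 noradrenergic markers of neuroblasts 10 were measured, with gene means from 8.85 to 10.8, all above the median of all probesets (5.19). Of these 10, 7 were lower with simvastatin than with DMSO. The 3 measured Schwann and glial markers had means from 5.30 to 5.80. These were above the median of all probesets but below the median of the named genes' means (6.07). Of the 3 measured blood and endothelial markers, 0 exceeded either median. The 2 measured mesenchymal markers, LUM and DCN, had means over all arrays of 8.2 and 5.33. Both were above the median of all probesets, and DCN was below that of the named genes. Together they averaged 7.18 to 7.35 on DMSO arrays, 6.10 to 6.30 with simvastatin and 6.82 to 6.86 with mevalonate added. The part these marker changes have in the results below was not tested. In bulk RNA a change in the share of cells that express a gene cannot be told apart from a change in RNA per cell.

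SREBF2 stood at 8.70, 8.56 and 8.74 (log2) on DMSO arrays, at 9.24, 9.35 and 9.36 with simvastatin, and at 8.78, 8.88 and 8.75 with simvastatin plus mevalonate. All simvastatin arrays lay above all others, and the mevalonate arrays lay just above the DMSO arrays. The means were 8.67 ± 0.10 (SD, n = 3), 9.32 ± 0.07 and 8.80 ± 0.07. Simvastatin raised the gene 1.57-fold, with a 95% confidence interval from 1.42 to 1.74 (limma, adjusted p = 0.000313). On adding mevalonate it fell by 0.52 ± 0.06 (SE) on the log2 scale, 1.43-fold (limma, adjusted p = 0.00127). Against DMSO, 0.13 ± 0.06 remained between the means, which did not pass the test (adjusted p = 0.487, interval -0.01 to 0.28).

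MIR33A, the gene of a microRNA that lies within an intron of SREBF2 and is known to repress cholesterol export, had a probeset of its own. Its log2 change with simvastatin was 0.09 (limma, adjusted p = 0.546) and that on adding mevalonate was -0.16 (adjusted p = 0.296). The probeset covers the MIR33A gene, and the mature microRNA itself was not measured by it. STARD4-AS1, which overlaps STARD4 in RefSeq, had a log2 change of -0.17 with simvastatin (adjusted p = 0.120).

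INSIG1 had log2 values of 7.86, 7.78 and 7.81 with DMSO and of 8.45, 8.25 and 8.38 with simvastatin. With mevalonate added the arrays read 8.23, 8.24 and 8.15. The mevalonate arrays thus stayed closer to simvastatin than to DMSO: their highest value lay just under the lowest simvastatin value, and their lowest well above every DMSO value. The means were 7.81 ± 0.04 (SD, n = 3), 8.36 ± 0.10 and 8.21 ± 0.05. INSIG1 rose 1.46-fold with simvastatin (interval 1.33 to 1.60, limma, adjusted p = 0.000493). The change on adding mevalonate, -0.16 ± 0.06 on the log2 scale, did not pass the test (limma, adjusted p = 0.144, interval -0.29 to -0.02).

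Between simvastatin plus mevalonate and DMSO, INSIG1 differed by 0.39 ± 0.06 on the log2 scale, or 1.31-fold (interval 1.20 to 1.44). Its unadjusted p was 0.000118 and its adjusted p 0.0587 (limma), just short of the threshold, in a comparison where 0.0739% of genes passed. Over 16 alternative settings the adjusted p ran from 0.00565 to 0.208. The call was made when dim genes were left out (adjusted p = 0.0220) and with a variance model that follows intensity (0.00565), and the change lay between 0.37 and 0.42 in all 16. Of the 14884 genes, 78 had a change upward at least as large, INSIG1 included.

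INSIG2 was the dimmest of the 4, above 62.2% of genes in mean level. It read 6.65, 6.67 and 6.69 with DMSO, 7.04, 7.03 and 6.86 with simvastatin, and 6.56, 6.69 and 6.64 with mevalonate added. Simvastatin arrays were the highest, and the other groups overlapped. The rise was 1.23-fold (interval 1.12 to 1.36, limma, adjusted p = 0.0112), from a mean of 6.67 ± 0.02 (SD, n = 3) to 6.98 ± 0.10. Mevalonate lowered it by 0.34 ± 0.06 (limma, adjusted p = 0.00719), to 6.63 ± 0.07. The difference from DMSO was then -0.04 ± 0.06 (adjusted p = 0.843, interval -0.18 to 0.10).

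STARD4 was the brightest, above 96.0% of genes in mean level. Its log2 values were 9.65, 9.60 and 9.67 with DMSO, 10.03, 9.92 and 10.02 with simvastatin, and 9.65, 9.46 and 9.56 with mevalonate added. Again the simvastatin arrays were the highest and the remaining groups overlapped. The rise was 1.27-fold (interval 1.16 to 1.40, limma, adjusted p = 0.00543), between means of 9.64 ± 0.04 (SD, n = 3) and 9.99 ± 0.06. Mevalonate lowered it by 0.43 ± 0.06 (limma, adjusted p = 0.00212), to 9.56 ± 0.10. Against DMSO the difference was -0.09 ± 0.06 (adjusted p = 0.631, interval -0.22 to 0.05).

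**Figure D2:**
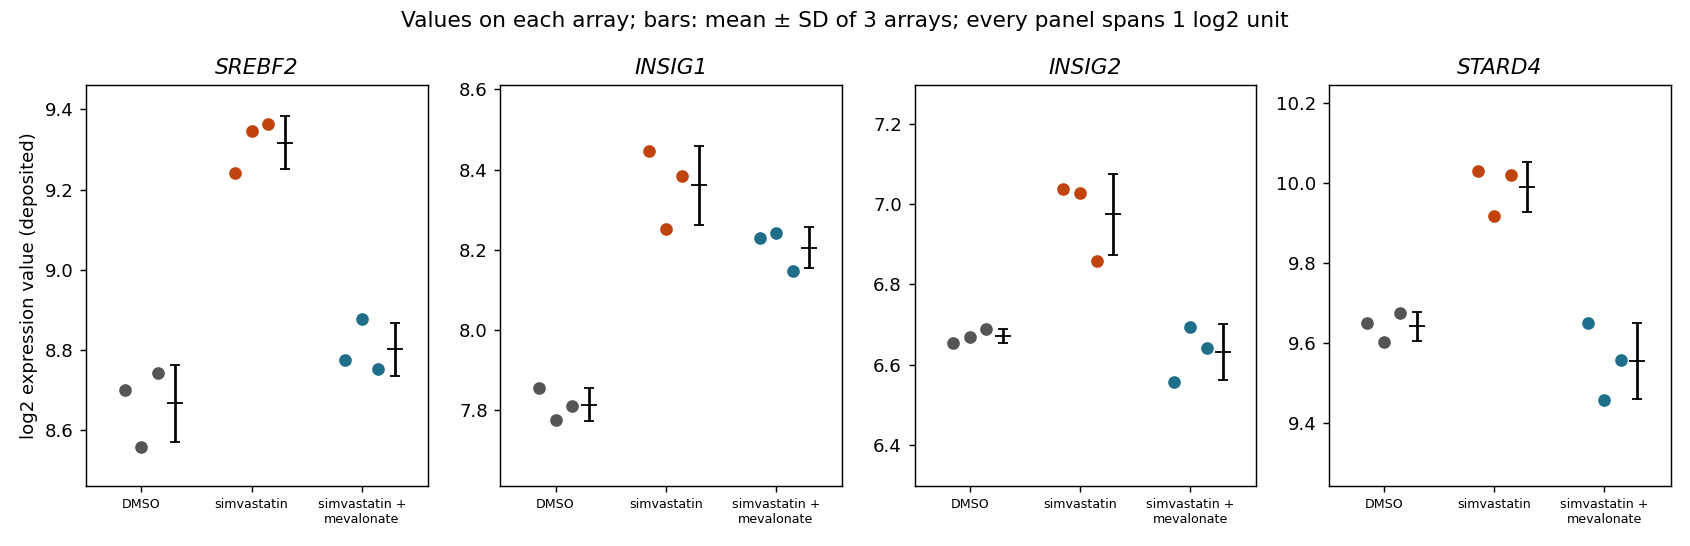
Deposited log2 values of SREBF2, INSIG1, INSIG2 and STARD4 on each of the 9 arrays (points, by group), with the mean ± SD of 3 arrays beside them; each panel spans 1 log2 unit. Simvastatin arrays are highest in every panel, and with mevalonate added INSIG1 stays between 8.15 and 8.24 while INSIG2 and STARD4 overlap with DMSO.

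With simvastatin 4 of the 4 genes were called higher, where 5.98% of all genes were called higher, and their median log2 change was 0.45 against 0.01 over all genes. The groups of all 4 did not overlap, which was so, in the upward direction, for 13.9% of genes. By size of rise among all genes, SREBF2 was at place 97, INSIG1 at 162, STARD4 at 544 and INSIG2 at 732. On adding mevalonate 3 of 4 were called lower, where 5.72% of all genes were, with a median of -0.39. The 4 genes were chosen with earlier results of these data known, so their standing against all genes is no independent support. In the comparison of simvastatin plus mevalonate with DMSO 0 of 4 were called by limma, and 1 of them, INSIG1, had an unadjusted p under 0.05. This comparison shares its arrays with the others. The calls of the members in the comparisons with simvastatin alone were unchanged in all 16 alternative settings, each left-out array included.

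The 4 genes were then compared with each other through the difference of their log2 values on each array, so that a change common to a pair cancels. With 3 arrays per group the smallest p of the exact permutation test (two-sided) is 0.10, so no pair could pass, and 12 tests were made. With simvastatin, the change of SREBF2 exceeded that of INSIG2 by 0.35 on the log2 scale (interval 0.06 to 0.63, exact p = 0.10, Benjamini-Hochberg 0.20) and that of STARD4 by 0.30 (0.10 to 0.51, exact p = 0.10). The change of INSIG1 exceeded that of STARD4 by 0.20 (0.11 to 0.29, exact p = 0.10) and that of INSIG2 by 0.24 (-0.01 to 0.50, exact p = 0.10). SREBF2 and INSIG1 differed by 0.10 (interval -0.17 to 0.37, exact p = 0.40), and INSIG2 and STARD4 by -0.04 (interval -0.27 to 0.18, exact p = 0.80).

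On adding mevalonate, the change of SREBF2 minus that of INSIG1 was -0.36 (interval -0.61 to -0.11, exact p = 0.10, Benjamini-Hochberg 0.20). The change of INSIG1 minus that of STARD4 was 0.28 (interval 0.08 to 0.48, exact p = 0.10). In these 2 pairs the arrays of the groups did not overlap, while in the other 4 pairs they did. INSIG1 minus INSIG2 was 0.19 (interval -0.09 to 0.47, exact p = 0.20), and SREBF2 minus INSIG2 was -0.17 (interval -0.43 to 0.09, exact p = 0.20). SREBF2 minus STARD4 was -0.08 (interval -0.38 to 0.22, exact p = 0.40), and INSIG2 minus STARD4 was 0.09 (interval -0.25 to 0.43, exact p = 0.50). The exact tests cannot decide whether the members differed in what mevalonate did, because an exact p of 0.10 is the smallest they can give. By the intervals, the 2 pairs without overlap had both ends of the same sign, and the other 4 pairs did not. The intervals are not adjusted for the number of pairs, so they do not decide it either.

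A further 6 pairs, for simvastatin plus mevalonate against DMSO, were added after the other results were seen. The change of INSIG1 exceeded that of INSIG2 by 0.43 (interval 0.27 to 0.59) and that of STARD4 by 0.48 (interval 0.28 to 0.67), and SREBF2 minus INSIG1 was -0.26 (interval -0.40 to -0.12). The change of SREBF2 in turn exceeded that of INSIG2 by 0.17 (interval 0.0023 to 0.35) and that of STARD4 by 0.22 (interval -0.04 to 0.49). Each of these 5 pairs had an exact p of 0.10, the smallest possible, and a Benjamini-Hochberg value of 0.12. INSIG2 and STARD4 differed by 0.05 (interval -0.22 to 0.32, exact p = 0.70).

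**Figure D3:**
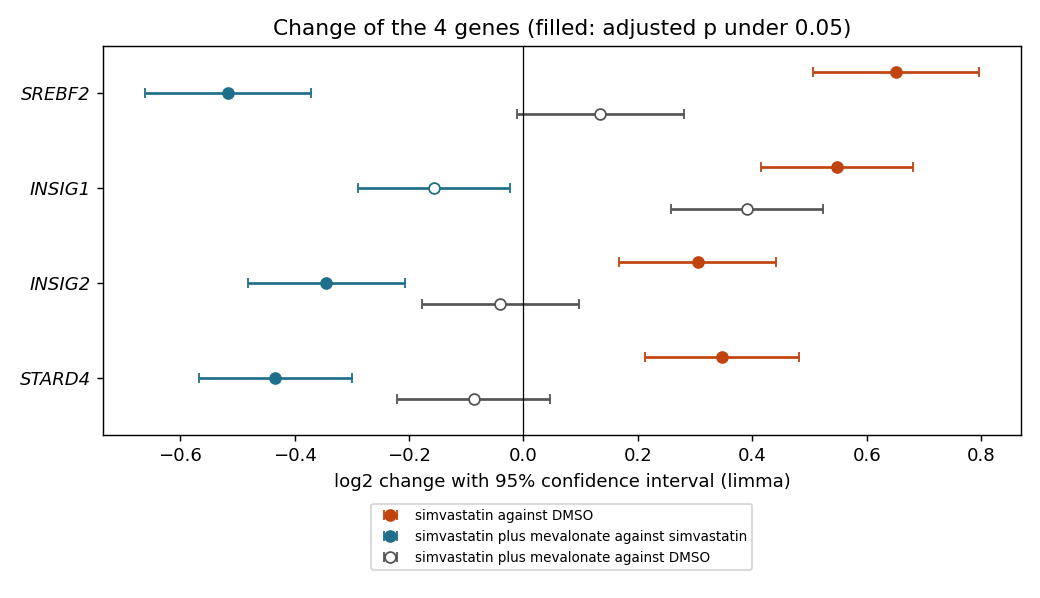
Log2 change of SREBF2, INSIG1, INSIG2 and STARD4 in the 3 comparisons (points, limma) with 95% confidence intervals; filled points passed an adjusted p of 0.05. INSIG1 has the smallest change on adding mevalonate (-0.16) and the largest difference between simvastatin plus mevalonate and DMSO (0.39).

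The other measured genes of the machinery that cuts, holds or degrades SREBPs and their partners did not pass the test. Of 20 genes of this list, 12 were measured, and the 3 called higher with simvastatin were SREBF2, INSIG1 and INSIG2. Of the other 9 genes 0 were called in any of the 3 comparisons (limma), and their median change with simvastatin was 0.04. Over all 14884 genes 890 were called higher with simvastatin and 1098 lower, so 0 of 9 does not set these genes apart. SREBF1, which encodes SREBP-1, the relative with a preference for fatty acid genes, went from a mean of 6.31 to 6.18 (change -0.13 ± 0.08, limma, adjusted p = 0.365). SCAP, the escort, stood at 7.03 and 7.07 (change 0.04 ± 0.05, adjusted p = 0.675). Its value was identical, 7.041195, on simvastatin replicates 2 and 3 and on every mevalonate array, where its SD was 0. ERLIN1 and RNF145, which take part in the sterol-controlled degradation of this machinery, had changes of 0.15 ± 0.06 (adjusted p = 0.156) and -0.13 ± 0.05 (adjusted p = 0.133). The protease genes MBTPS1 and MBTPS2 had no probeset under their symbols in the annotation used, so they are not analysed here.

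Targets of SREBP-2 in cholesterol synthesis rose with simvastatin in 10 of 14 measured cases and fell in 0, where 5.98% of all genes rose. Their median log2 change was 0.49. DHCR7, of the last step (2.02 ± 0.08), HMGCS1, an enzyme of an early step (1.66 ± 0.05), and ACAT2, which joins acetyl-CoA units (1.40 ± 0.05), all had larger changes than the 0.65 of SREBF2, with the differences not tested. MVD (0.89 ± 0.05) and MSMO1 (0.81 ± 0.05), enzymes of later steps, did so too, while EBP (0.36 ± 0.07) and NSDHL (0.40 ± 0.06) had changes near those of STARD4 and INSIG2. IDI1 (0.46 ± 0.07), SQLE (0.51 ± 0.05) and FDPS (0.53 ± 0.08) lay between NSDHL and SREBF2. On adding mevalonate 9 of the 14 were called lower, where 5.72% of all genes were.

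Against DMSO, 3 of these 14 were still higher with simvastatin plus mevalonate, HMGCS1 (0.60 ± 0.05, limma, adjusted p = 0.0129), ACAT2 (0.60 ± 0.05, adjusted p = 0.0176) and MSMO1 (0.53 ± 0.05, adjusted p = 0.0183). These differences stand beside the 0.39 ± 0.06 of INSIG1. With any DMSO array or replicate 1 of the mevalonate group left out, 0 of the 14 were called, and without simvastatin plus mevalonate replicate 3, 1 was. Without simvastatin plus mevalonate replicate 2 the MSMO1 call was lost (adjusted p = 0.0892). With the replicate numbers as a block, 0 were called.

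Among proteins that transfer sterols and other lipids, 29 of 33 genes were measured. Of these 5, STARD4 included, rose with simvastatin and 1 fell, with a median change of -0.0034. Without STARD4, 4 of 28 rose and 1 fell, where 890 of all 14884 genes rose and 1098 fell. OSBP, which exchanges cholesterol for a phosphoinositide between the endoplasmic reticulum and the Golgi, rose by 0.37 ± 0.05 (limma, adjusted p = 0.00135), close to STARD4, and fell by 0.39 ± 0.05 with mevalonate (adjusted p = 0.00125). Its relative OSBPL6 (0.29 ± 0.07, adjusted p = 0.0325) and GRAMD1A (0.23 ± 0.06, adjusted p = 0.0376), a sterol carrier at contacts with the plasma membrane, also passed. Leaving out any DMSO array, simvastatin replicate 1, simvastatin replicate 2, or replicate 1 or 3 of the mevalonate group ended the OSBPL6 call (adjusted p at most 0.105). Leaving out any DMSO array, simvastatin replicate 1, simvastatin replicate 3, or replicate 2 of the mevalonate group ended that of GRAMD1A (at most 0.112). The list's count of 6 fell to 3 without DMSO replicate 2 or simvastatin replicate 1 or 2, and to 2 without DMSO replicate 3.

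Relatives of STARD4 were not called with simvastatin, and their difference from STARD4 was not tested. STARD5, another soluble START protein, had a change of -0.0034 ± 0.045 with simvastatin (adjusted p = 0.975), and STARD6 one of 0.33 ± 0.11 (adjusted p = 0.0933). STARD6 was dim, with means of 2.54 with DMSO and 2.87 with simvastatin, below the median of all probesets (5.19). On adding mevalonate, 6 of the 29 transfer genes, STARD4 included, were called lower and 0 higher, where 5.72% of all genes were called lower. The 6 became 3 on leaving out simvastatin replicate 1, simvastatin replicate 2, or replicate 2 of the mevalonate group. Of 7 measured genes of sterol efflux, storage and oxysterols, 1 fell with simvastatin, LPCAT3, a phospholipid-remodelling enzyme and target of the oxysterol receptor LXR (-0.42 ± 0.04, adjusted p = 0.000475). It rose by 0.33 ± 0.04 with mevalonate (adjusted p = 0.00186). Over all 14884 genes 1098 fell with simvastatin, so 1 of 7 does not set this list apart. A further gene of this list was called with simvastatin when simvastatin replicate 3 was left out, in a count that does not give its direction.

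**Figure D4:**
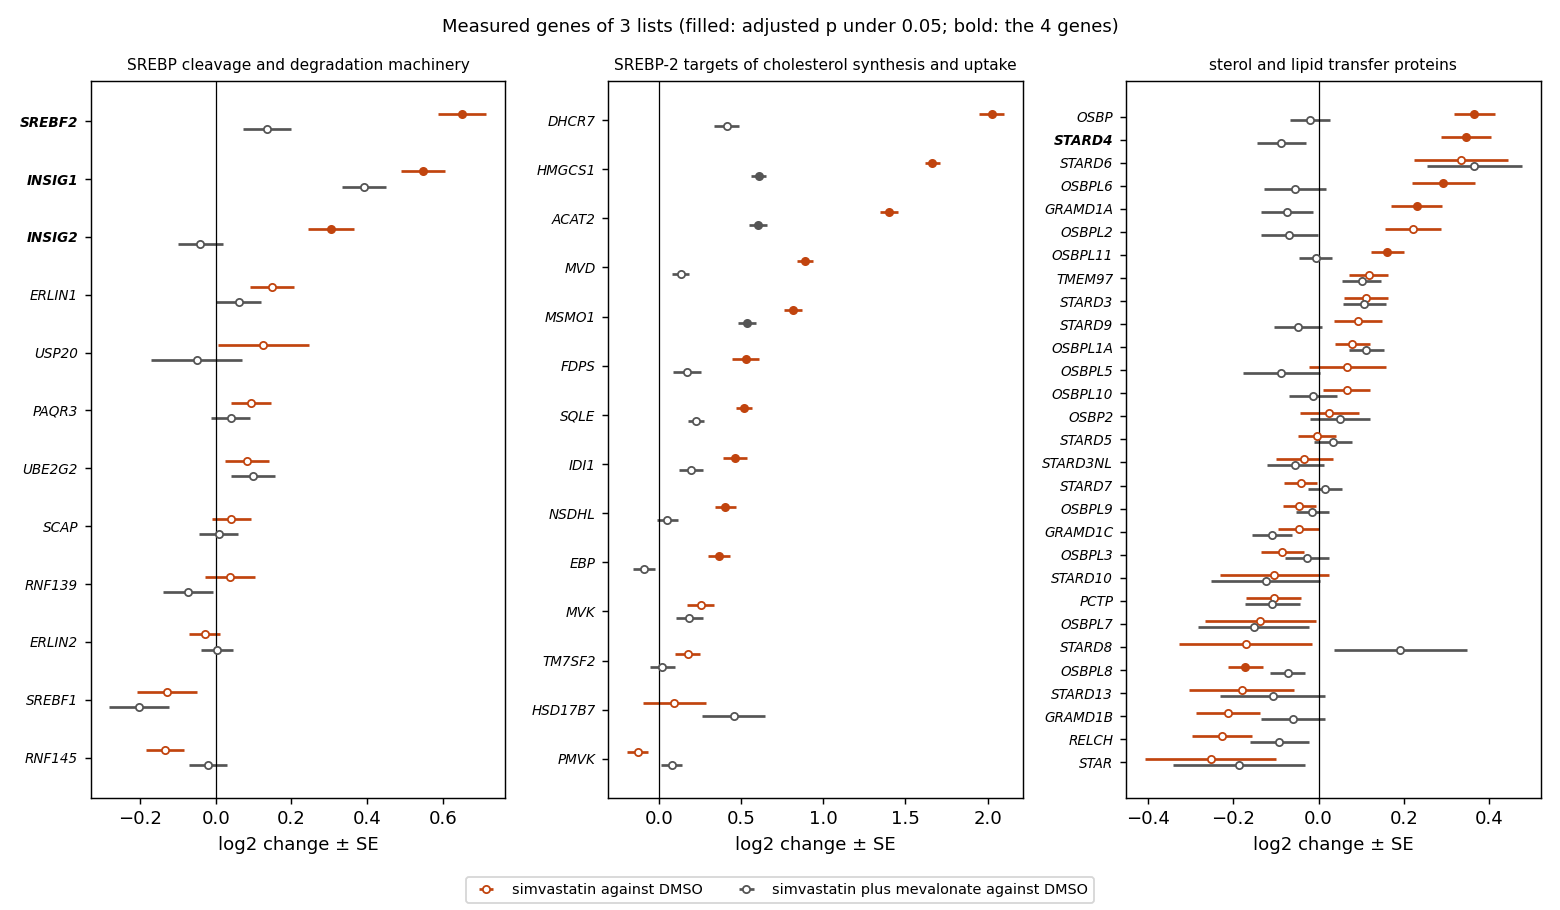
Log2 change ± SE (limma) of the measured genes of 3 lists for simvastatin against DMSO and for simvastatin plus mevalonate against DMSO; filled points passed an adjusted p of 0.05, and SREBF2, INSIG1, INSIG2 and STARD4 are in bold. In the SREBP machinery 3 genes pass with simvastatin, and HMGCS1, ACAT2 and MSMO1 remain higher with mevalonate.

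The genes whose values followed each member most closely over the 9 arrays were found by Pearson's r among 9523 named genes brighter than the median probeset. The other members were not ranked. The 9 points share 3 group means, so r mainly describes the order of the groups. For SREBF2 these were EIF4EBP1 (r = 0.992), which encodes a repressor of translation, ANKRD11 (0.989), MTSS2 (0.985), XBP1 (0.985), which encodes a regulator of endoplasmic reticulum stress genes, and FHL3 (0.984). For INSIG1 they were NARS1 (0.985), the asparaginyl-tRNA synthetase, PDZD8 (0.978), a lipid transfer protein of the endoplasmic reticulum, PSAT1 (0.968), an enzyme of serine synthesis, ADO (0.968) and WDR12 (0.965).

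INSIG2 was followed by HSPA4L (0.977), TRIOBP (0.977), IQGAP1 (0.976), CDT1 (0.975), which licenses DNA for replication, and OSBPL11 (0.975), a relative of OSBP. STARD4 was followed by RNF144A (0.988), RHOQ (0.982), PKD1 (0.979), NF1 (0.976), a negative regulator of RAS, and UGDH (0.975), which makes UDP-glucuronate. The 4 lists of 5 had no gene in common. PSAT1, nearest to INSIG1 after NARS1 and PDZD8, was higher with simvastatin plus mevalonate than with DMSO (0.44 ± 0.04, limma, adjusted p = 0.0176); it was chosen for its r over the same arrays, so this is no independent support for the value of INSIG1. That call was lost on leaving out any array of these 2 groups, with adjusted p up to 0.0884.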

How the data were processed

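Total RNA of 9 samples was hybridised, biotin-labelled, to one-channel Affymetrix whole-transcript arrays, per the labels' protocols. The authors deposited log2 values, 1 per probeset and array; the scale was read from the values (0.921 to 14.0). GCRMA and HOMER are named in the submitters' processing notes, with versions, roles and genome build not given in the sources used here. Values scaled to a like distribution on every array would not show a change common to all genes. Detection calls were not used, and precision is limited by the 3 arrays in each group. Some values recurred exactly on several arrays, such as DHCR7 at 7.683503 on every mevalonate array. STARD4 read 9.650293 on both DMSO replicate 1 and replicate 1 of the mevalonate group. Such ties narrow the spread within a group where they fall in it, and their origin was not tested.

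Of 53617 probesets, 16098 (30.0%) carried 1 gene symbol, 0 several and the rest none. The brightest probeset stood for a gene with several (779 genes), which left 14884 genes. All 9 arrays entered 1 fit with 3 group means (R 4.3.3, limma 3.58.1, lmFit and eBayes, 6 residual degrees of freedom), with Benjamini-Hochberg adjustment over all 14884 genes and a threshold of 0.05. "Rose", "fell" and "called" refer to that threshold, and intervals are at the 95% level. Those of member pairs are t intervals from the pooled SD of the 2 groups compared, not adjusted for the number of pairs. The procedure was also run on simulated data with planted changes and independent normal noise, which do not test the effect of the ties above. Promoter windows and symbols came from RefSeq tables (GRCh38.p14); all 4 members matched, and motifs were searched with Python 3.11.15. Alternatives were quantile normalization, a filter on dim genes, the mean over probesets, all probesets tested together, a trended robust variance, fits with only the groups compared, a replicate block and leaving out each array.

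The members and gene lists were chosen with earlier results of these data known. The genes named are the members; SREBF1, SCAP, MBTPS1 and MBTPS2 where measured, with further genes of this rule not reported here; up to 4 called genes per list with the largest change with simvastatin; list genes called in simvastatin plus mevalonate against DMSO; and for each member the 5 genes with the highest r, leaving out non-coding and provisional symbols. The ranking by r also left out the other members and further genes not reported here. ERLIN1, RNF145, EBP, NSDHL, IDI1, SQLE, FDPS, STARD5, STARD6, MIR33A and STARD4-AS1 were named after their values were seen.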

Additional observations from a re-analysis of the deposited data

How the results depend on the processing

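The member calls with simvastatin (4 of 4) and on adding mevalonate (3 of 4) were the same in all 16 alternative settings. In simvastatin plus mevalonate against DMSO, INSIG1 (0.39) passed when dim genes were left out (adjusted p = 0.0220) and with the trended robust variance (0.00565), so that 1 member and 1 gene of the SREBP machinery were called there in place of 0. The genes called in that comparison numbered 11, against 98 without dim genes, 223 with the trended robust variance, 1 with all probesets tested together, and 0 with only the groups compared or the replicate block; leaving out an array gave 0 to 12. The SREBP-2 targets called there, 3, became 1 with all probesets, 5 with the trended variance, 0 with only the groups compared, 0 with the replicate block, and 0 to 3 without an array. With all probesets tested together, 1177 genes in place of 1988 were called with simvastatin and 922 in place of 1642 on adding mevalonate.

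Among transfer genes, 6 calls with simvastatin became 2 with all probesets, 2 with only the groups compared, 3 with the replicate block and 2 to 5 without an array; on adding mevalonate 6 became 3 with all probesets and 3 to 6 without an array. Of the efflux and oxysterol genes, 1 was called with simvastatin, 2 with the trended variance and 1 to 2 without an array; on adding mevalonate 2 were called, and 1 with quantile normalization, all probesets, only the groups compared or the replicate block, and 1 to 2 without an array. The count of member pairs whose groups did not overlap, 6 of 12, ran from 6 to 8. Why these counts move was not tested beyond the fewer arrays or wider adjustment that the settings themselves bring. Same-numbered arrays of different groups did not deviate together (r from -0.08 to 0.05, 0 of 9 pairs over 0.1), so the numbers were not taken to pair samples, and the block changed no call of a member.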
